A study of Mus musculus with 25 samples.

Results

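The genes described here are 10 genes of insulin, insulin-like growth factor, FoxO and mTOR signalling, among the 47729 genes of a count table from mouse brain. They were taken by symbol and matched by Ensembl identifier: the ligand gene Igf1, the receptor genes Igf1r and Insr, the adaptor genes Irs1 and Irs2, the kinase gene Akt1, the transcription factor genes Foxo1, Foxo3 and Foxo6, and the kinase gene Mtor. Each of the 10 had 80 or more counts in every library, and all 10 passed the filter on low counts. Bulk RNA sequencing was done on whole-hemisphere brain RNA of male mice of the C57BL/6 strain, with 5 libraries each at 2, 9, 15, 24 and 30 months of age. The labels give no treatment or altered allele, so the groups share strain, sex and tissue and differ in age. The labels give each library a number of its own without saying what it stands for, so the p-values measure the spread between libraries of an age. At 2 months these numbers fall into 2 separate runs, replicates 1 and 2 and replicates 3 to 5, while at each other age they lie close together. Fits without either run were added after seeing the data.

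Insulin and IGF1 bind related receptor tyrosine kinases, which recruit insulin receptor substrates and, through the lipid kinase PI3K, switch on AKT. AKT holds FoxO transcription factors inactive. By restraining the TSC complex, it also lets the small GTPase RHEB turn on mTOR, the kinase that sets protein synthesis against autophagy. Lowered activity of the pathway lengthens life in worms, flies and mice, and in the brain the pathway is known for its part in growth, myelination and neuronal survival.

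Library totals ran from 17800113 to 31261121 counts. The markers of neurons, astrocytes, oligodendrocytes and microglia were above 0 in every library. At 30 months the libraries stood apart in base composition. The median log2 ratio of the 10% of genes richest in GC over that of the 10% poorest, each gene set against its mean in the younger libraries, was 0.129 in replicate 1 and 1.08, 1.41, 1.30 and 1.98 in replicates 2 to 5, against -0.247 to 0.148 in the 20 younger libraries. All 5 libraries of 30 months also held more mitochondrial rRNA, at 1.402 to 1.89% of their counts and 1.56% in replicate 1, against 0.633 to 0.847% at the younger ages. Changes at 30 months are also given with an offset for GC content and without replicates 2 to 5. Alb, a liver transcript, was at 10 CPM or more in 5 of 5 libraries at 24 months and in 1 of 5 at 2 months. At 9, 15 and 30 months it was so in 2, 4 and 1 of 5 libraries. The choroid plexus markers summed to 38.1 CPM in 9 months replicate 1 and to 420 CPM or more in every other library. The microglia markers summed to 449 to 502 CPM at 24 months and 379 to 467 CPM at 2 months. The part of these differences in the results below was not tested, and in bulk tissue fewer cells of a type and less RNA per cell cannot be told apart.

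Per length of exon, Akt1 was the most abundant of the 10 transcripts over the libraries of 2 to 24 months. The level of Akt1 averaged 39.3 ± 2.00 CPM per kb (SD, n = 20), where CPM is the count scaled to library size, with TMM factors. Mtor followed at 17.9 ± 0.405 CPM per kb, then Foxo3 at 16.1 ± 0.811 and Irs2 at 15.2 ± 2.00. Igf1r and Insr, the receptor pair, stood close together at 6.81 ± 0.461 and 6.68 ± 0.220 CPM per kb. Foxo1 averaged 5.87 ± 0.406 and Foxo6 3.88 ± 0.643 CPM per kb, while Irs1 at 1.68 ± 0.208 and Igf1 at 1.50 ± 0.117 were the scarcest. In this order the ranges of the libraries overlapped from Mtor to Foxo3, Foxo3 to Irs2, Igf1r to Insr, Insr to Foxo1, and Irs1 to Igf1. The 2 adaptor transcripts did not overlap, with Irs2 at 12.1 to 19.1 CPM per kb and Irs1 at 1.30 to 2.16 CPM per kb.

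**Figure D1:**
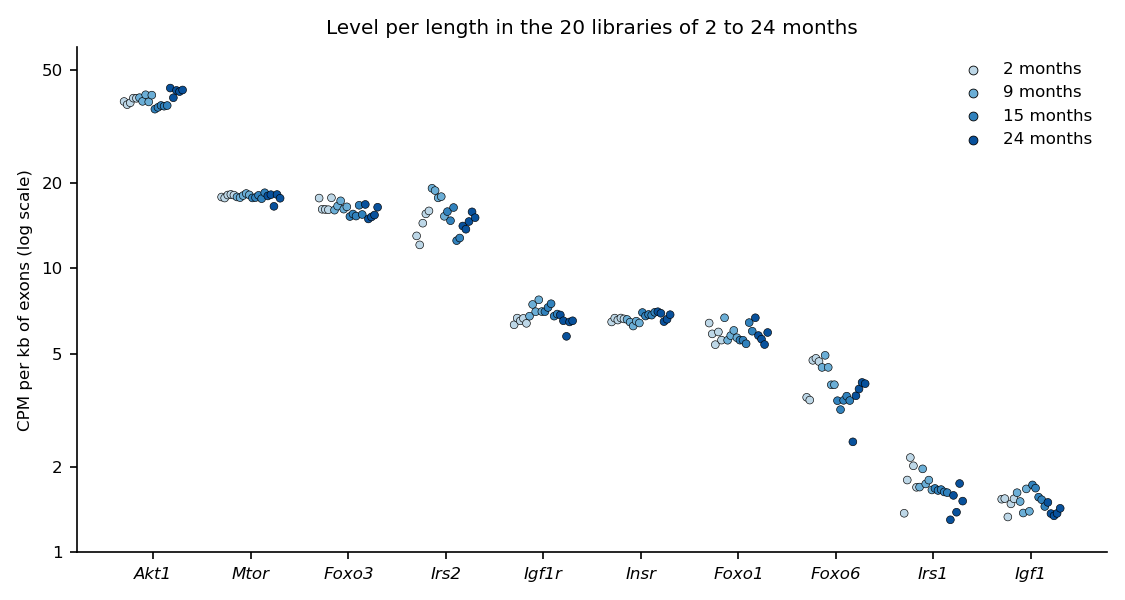
Level of each gene in CPM per kb of exons (log scale), 1 point per library of 2, 9, 15 and 24 months, genes ordered by their mean. Akt1 lies above all others at 36.3 to 43.0 CPM per kb, and Irs1 and Igf1 lie lowest.

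The first question was which of the genes differed between ages up to 24 months. At 9 against 2 months 2 of the 10 genes changed (Igf1r and Irs2, both higher at 9 months), while 14.9% of all 17472 genes tested were called (edgeR quasi-likelihood test, adjusted p under 0.05). At 15 against 2 months 1 gene changed (Igf1r, higher), with 13.1% of all genes called. At 24 against 2 months 2 changed (Akt1 higher, Irs1 lower), with 22.8% called. At 15 against 9 months 3 changed (Insr higher, Irs2 and Akt1 lower), with 10.9% called, and at 24 against 15 months 3 changed (Akt1 higher, Igf1 and Igf1r lower), with 24.1% called. The median log2 fold change of the 10 genes lay between -0.05 and 0.03 in these 5 comparisons, beside medians of -0.01 to 0.01 over all genes. Apart from 15 against 9 months, the shares of members called were near these backgrounds and say nothing particular of the set, so the results are those of single genes. The 3 calls at 15 against 9 months were all lost when 9 months replicate 3 was left out, and with the GC offset, under which 5.52% of all genes were called. A straight line in age from 2 to 24 months was called for 2 of the 10 genes (Irs1 and Foxo6, both falling), beside 16.8% of all genes, and a departure from that line for 4 (Igf1r, Insr, Irs2 and Akt1), beside 30.0%. When the 30 months libraries shared the fit and widened its spread, none of the 10 genes was called in any of the 5 pairwise comparisons, while 2.38%, 1.26%, 5.23%, 0.0169% and 1.13% of all genes were called at 9 against 2, 15 against 2, 24 against 2, 15 against 9 and 24 against 15 months.

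**Figure D2:**
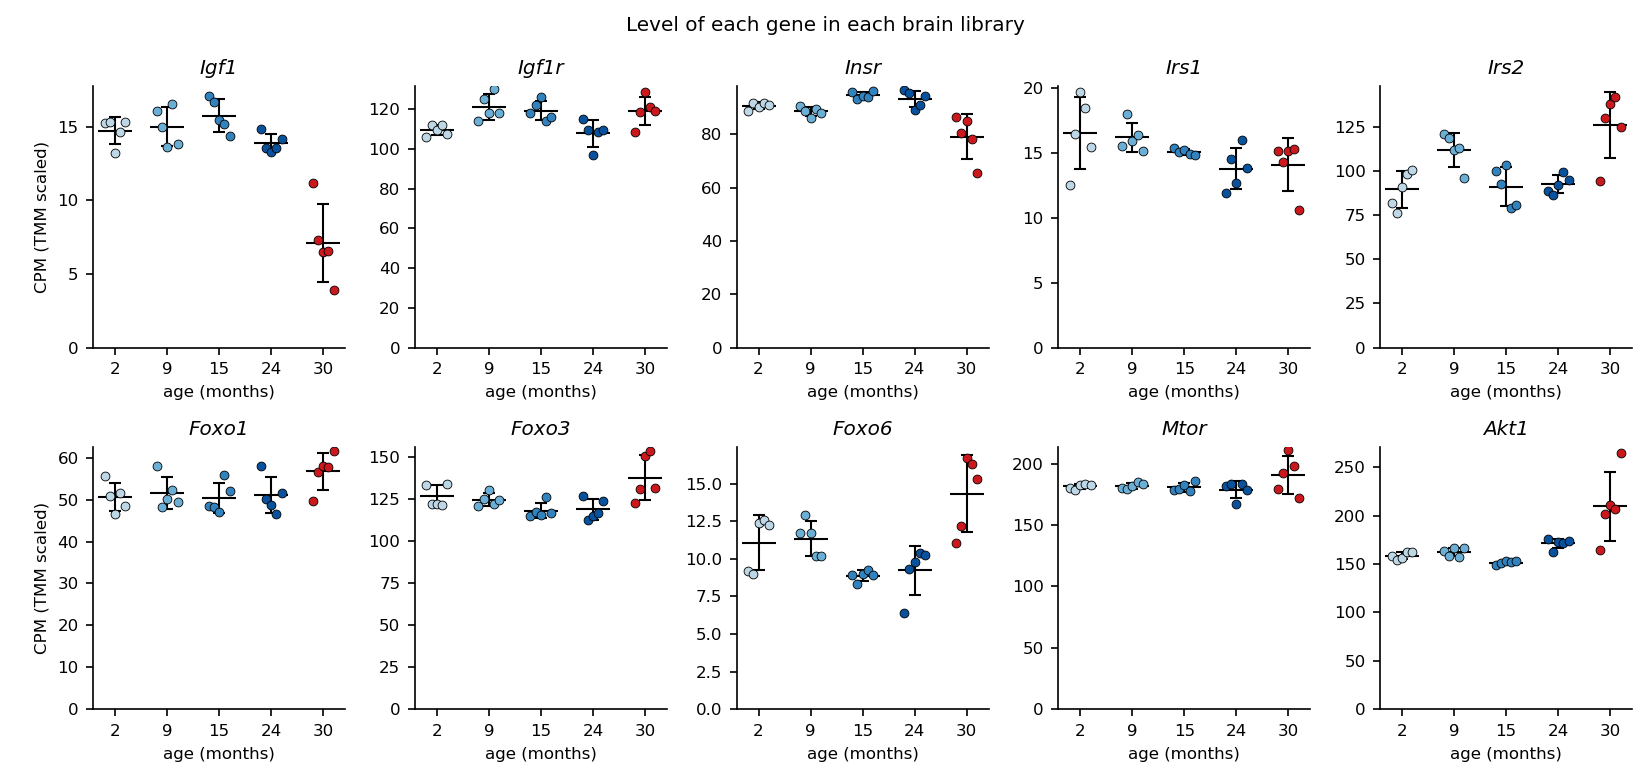
CPM of each gene in each library (points) by age in months, with the mean and SD of the 5 libraries of each age (bars). Igf1r is higher at 9 and 15 months than at 2 and 24 months, Akt1 is lowest at 15 months, and the 30 months libraries (red) have the widest SD for every gene except Irs1.

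**Figure D3:**
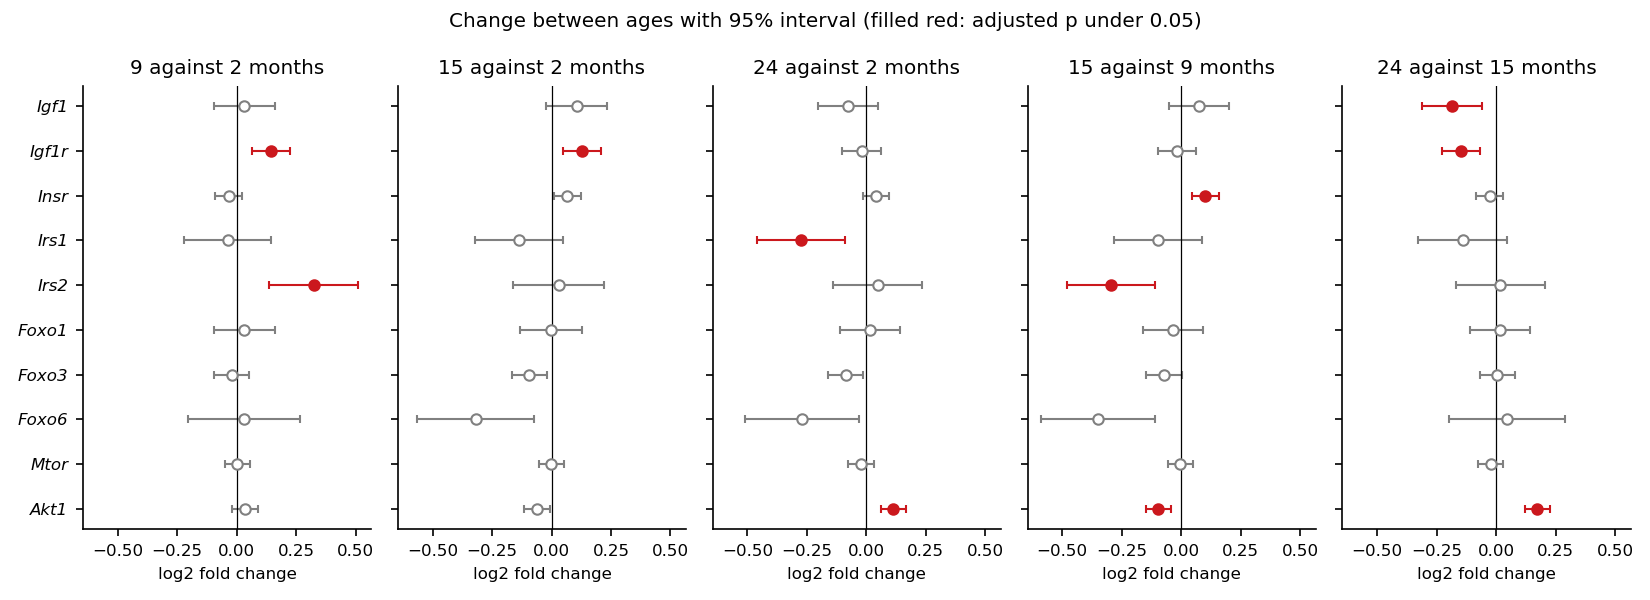
Log2 fold change of each gene, older against younger age, in 5 comparisons, with the 95% interval of the fit (bars); filled red points have an adjusted p under 0.05. The called changes lie between -0.29 for Irs2 at 15 against 9 months and 0.32 for Irs2 at 9 against 2 months.

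Igf1 encodes the secreted growth factor that, with insulin, starts the cascade (chr10:87858265-87937042, plus strand, GRCm38). Its level was 15.2, 15.3, 13.2, 14.7 and 15.3 CPM at 2 months, 16.1, 15.0, 13.6, 16.6 and 13.8 CPM at 9 months, 17.1, 16.7, 15.5, 15.2 and 14.4 CPM at 15 months, and 14.9, 13.6, 13.3, 13.6 and 14.2 CPM at 24 months. The 24 months libraries were among the lowest, with 1 of them inside the range of 15 months. At 24 against 15 months Igf1 fell by 0.18 on the log2 scale (SE 0.06, adjusted p = 0.0285). The call did not hold when 15 months replicate 1 or 2, or 24 months replicate 2, 3 or 4, was left out, and with the GC offset the change was -0.08 ± 0.06 (SE). Of 10 markers of microglia, a source of IGF1 in brain, 4 were called in that comparison, and all 4 were higher at 24 months. Beside them 24.1% of all genes were called, and the part of microglia in the Igf1 change was not tested.

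Igf1r encodes the receptor for IGF1 (chr7:67952827-68233668, plus strand). It was higher at 9 and 15 months and lower again at 24 months, and departed from a straight line in age (adjusted p = 0.00112). The level was 106, 112, 109.6, 112 and 107 CPM at 2 months, 114, 125, 118, 130.0 and 118 CPM at 9 months, 118, 122, 126, 114 and 116 CPM at 15 months, and 115, 109.7, 96.7, 109 and 109.7 CPM at 24 months. Every library of 9 and of 15 months lay above every library of 2 months, and the 24 months libraries reached both below and above the 2 months range. Igf1r rose by 0.14 (SE 0.04, adjusted p = 0.0126) at 9 against 2 months and by 0.13 (SE 0.04, adjusted p = 0.0310) at 15 against 2 months, in log2 units. It fell by 0.15 (SE 0.04, adjusted p = 0.00677) at 24 against 15 months. In the alternative with all 25 libraries the line ran from 2 to 30 months, a different departure. The departure from a line was past the threshold in all 30 alternatives run, that one included. The rise at 9 months was past it in 28 of 30, the exceptions being the fit with all 25 libraries and that without 2 months replicates 3 to 5 (0.15 ± 0.06, SE, adjusted p = 0.0980). The rise at 15 months was lost with the GC offset (0.12 ± 0.04, SE), without any 1 of 2 months replicates 1, 3 and 5 or 15 months replicates 1, 2 and 3, and without either run of 2 months libraries.

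Insr encodes the insulin receptor (chr8:3122061-3279617, minus strand) and varied little. It was at 93.3 to 96.1 CPM at 15 months and 86.0 to 90.7 CPM at 9 months, with no overlap. Insr rose by 0.10 (SE 0.03, adjusted p = 0.0158) in this comparison and departed from a line in age (adjusted p = 0.0451). The rise was lost when 9 months replicate 3 was left out, the departure in 17 of 20 fits that each left out 1 library and without either run of 2 months libraries, and both with the GC offset. At 24 against 2 months its change was 0.04 with a 95% interval of -0.02 to 0.10, in log2 units.

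Irs1 and Irs2 encode the adaptors that couple both receptors to PI3K. Up to 24 months their transcripts were called in different comparisons, and a difference between the 2 genes was not tested. Irs1 (chr1:82233101-82291416, minus strand) was at 12.6, 16.4, 19.7, 18.4 and 15.5 CPM at 2 months, 15.5, 17.99, 15.9, 16.4 and 15.2 CPM at 9 months, 15.4, 15.1, 15.2, 14.9 and 14.8 CPM at 15 months, and 11.9, 14.5, 12.7, 15.98 and 13.9 CPM at 24 months. The ages overlapped, and 2 months replicate 1 lay with the libraries of 24 months. Irs1 fell by 0.28 (SE 0.09, adjusted p = 0.0279) at 24 against 2 months in log2 units, and along a line in age it fell by 0.28 over 22 months (adjusted p = 0.0196). The pairwise call did not hold when 2 months replicate 3 or 4, or 24 months replicate 1 or 3, was left out, nor the trend when 2 months replicate 3, or 24 months replicate 1 or 3, was left out. Under the GC offset both were past the threshold. Neither was without 2 months replicates 3 to 5, with the change at 24 against 2 months at -0.08 ± 0.10 (SE). Without 2 months replicates 1 and 2 both were, and so was the change at 15 against 2 months (-0.25 ± 0.08, SE, adjusted p = 0.0407).

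Irs2 (chr8:10984681-11008458, minus strand) was at 82.1, 76.4, 91.0, 98.2 and 101 CPM at 2 months, 121, 119, 112, 113 and 96.2 CPM at 9 months, 99.97, 92.9, 103, 79.0 and 80.7 CPM at 15 months, and 89.0, 86.7, 92.3, 99.8 and 95.2 CPM at 24 months. Of the 9 months libraries, 4 of 5 lay above every library of 2, 15 and 24 months. At 2 months replicates 1 and 2 were the lowest, at 82.1 and 76.4 CPM, and replicates 3 to 5 lay at 91.0 to 101 CPM. Irs2 rose by 0.32 (SE 0.09, adjusted p = 0.0203) at 9 against 2 months, was 0.29 lower (log2 fold change -0.29, SE 0.09, adjusted p = 0.0411) at 15 against 9 months, and departed from a line in age (adjusted p = 0.0136). The departure was past the threshold in all 30 alternatives, the GC offset and the fits without either run of 2 months libraries included. Of these alternatives, the fit with all 25 libraries tested a departure from a line from 2 to 30 months, not 2 to 24. The rise at 9 months did not pass when 2 months replicate 2 was left out, or 9 months replicate 1, the library low in choroid plexus markers, with adjusted p of 0.0513 to 0.0518. It was 0.22 ± 0.09 (SE) and not called without 2 months replicates 1 and 2, and 0.50 ± 0.11 (SE) and called without replicates 3 to 5. Over all 30 alternatives its adjusted p ran from 0.00334 to 0.139. The fall at 15 months was lost without any 1 of 9 months replicates 1 to 4 or 15 months replicates 2, 4 and 5.

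Windows of 300 bases around the annotated start were found in RefSeq (GRCm38.p6) for 8 of the 10 genes, all but Insr and Foxo6. The windows of the 2 adaptor genes and of Akt1 are shown. Each was searched on both strands for the E-box CACGTG, which reads the same on both strands and overlaps no other motif searched, and for the FoxO element GTAAACA, and matches are in capitals. The Irs1 window (chr1:82291390-82291689, minus strand) has an E-box at -115, and the Irs2 window (chr8:11008880-11009179, minus strand) has one at -44, counted from the start. An E-box is held by 7.17% of all 32544 windows. The FoxO element was found in the windows of 1 of the 8 genes, Akt1, and in 3.66% of all windows. It lies at -161 in 1 of the 2 Akt1 windows, the one shown (chr12:112674835-112675134, minus strand), and the other (chr12:112674227-112674526, minus strand) holds neither motif. A match in these letters describes the window and not a bound site.
Irs1: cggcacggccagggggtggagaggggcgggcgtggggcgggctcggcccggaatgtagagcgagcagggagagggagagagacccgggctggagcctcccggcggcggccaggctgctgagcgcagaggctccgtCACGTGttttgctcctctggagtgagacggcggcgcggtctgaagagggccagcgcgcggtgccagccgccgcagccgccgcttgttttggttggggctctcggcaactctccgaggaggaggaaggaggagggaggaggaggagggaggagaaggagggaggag
Irs2: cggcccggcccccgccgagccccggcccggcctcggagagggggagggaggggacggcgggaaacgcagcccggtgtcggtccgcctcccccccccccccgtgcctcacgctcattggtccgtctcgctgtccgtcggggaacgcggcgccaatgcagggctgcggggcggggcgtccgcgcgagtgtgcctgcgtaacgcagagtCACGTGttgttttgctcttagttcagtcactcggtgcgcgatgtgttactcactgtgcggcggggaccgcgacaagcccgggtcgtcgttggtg
Akt1: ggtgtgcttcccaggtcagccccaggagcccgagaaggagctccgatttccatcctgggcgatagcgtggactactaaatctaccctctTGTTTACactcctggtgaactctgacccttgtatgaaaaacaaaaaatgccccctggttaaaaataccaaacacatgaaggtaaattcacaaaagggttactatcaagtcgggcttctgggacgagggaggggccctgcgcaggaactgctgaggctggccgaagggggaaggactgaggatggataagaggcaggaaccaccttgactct

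Akt1 encodes the kinase between PI3K and both FoxO and mTOR (chr12:112653821-112674884, minus strand) and dipped at 15 months. It was at 158, 154, 156, 162 and 162 CPM at 2 months, 163, 158, 167, 158 and 166 CPM at 9 months, 149, 151, 153, 152 and 153 CPM at 15 months, and 176, 163, 173, 171 and 174 CPM at 24 months. The 15 months libraries lay below all other libraries up to 24 months, and the 24 months libraries lay above all of 2 and of 15 months. Akt1 fell by 0.10 (SE 0.03, adjusted p = 0.0159) at 15 against 9 months, rose by 0.17 (SE 0.03, adjusted p = 3.57e-05) at 24 against 15 months and by 0.11 (SE 0.03, adjusted p = 0.00208) at 24 against 2 months, in log2 units. It also departed from a line in age (adjusted p = 0.000324). The 15 months libraries had the lowest GC ratios of the younger ages (-0.247 to -0.0821), and the Akt1 transcript is rich in GC (59.7%). With the GC offset the dip was not called (-0.01 ± 0.03 at 15 against 9 months and 0.05 ± 0.03 at 24 against 15 months, SE), nor was the departure, while at 24 against 2 months Akt1 was higher by 0.07 ± 0.03 (SE) and past the threshold. With a covariate for Alb, which moved with this comparison, the Akt1 change was 0.10 with an adjusted p of 0.0630, and the adjusted p ran from 0.000232 to 0.419 over 30 alternatives. The dip at 15 against 9 months was also lost when 9 months replicate 3 was left out.

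The FoxO genes encode transcription factors that AKT holds inactive. Foxo6 (chr4:120267079-120287349, minus strand), which is expressed mainly in brain, fell along a line in age, a call that rested on single libraries. It was at 9.19, 8.98, 12.4, 12.6 and 12.3 CPM at 2 months, 11.7, 12.9, 11.7, 10.2 and 10.2 CPM at 9 months, 8.94, 8.32, 8.96, 9.27 and 8.95 CPM at 15 months, and 6.40, 9.30, 9.83, 10.4 and 10.3 CPM at 24 months. The 2 months libraries were split as their numbers are, with replicates 1 and 2 at the level of 15 months and replicates 3 to 5 above it, and 24 months replicate 1 was far below the rest of its age. Along a line from 2 to 24 months Foxo6 fell by 0.34 on the log2 scale over 22 months (adjusted p = 0.0490). This call was lost in 16 of 20 fits that each left out 1 library, was held with the GC offset, and with all 25 libraries, 30 months included, the slope had the other sign. Without 2 months replicates 1 and 2 the fall was 0.46 over 22 months (adjusted p = 0.00612), and without replicates 3 to 5 it was 0.21 and not called (adjusted p = 0.351). No pair of the younger ages was called in the fit reported here, but some alternatives called Foxo6. At 24 against 2 months 5 of 30 did, with adjusted p from 0.00532 to 0.951 over all of them. The change was -0.32 ± 0.10 (SE) with the GC offset, -0.43 ± 0.11 (SE) without 2 months replicates 1 and 2 and 0.02 ± 0.13 (SE) without replicates 3 to 5. At 15 against 2 months 6 of 30 called it lower (adjusted p 0.00532 to 0.936), and at 15 against 9 months 9 of 30 (0.00783 to 0.441). What the 2 runs of 2 months libraries stand for was not tested.

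Foxo1 (chr3:52268336-52353221, plus strand) and Foxo3 (chr10:42181841-42276755, minus strand) encode the widely expressed members of the family. Foxo1 was at 46.6 to 58.0 CPM over the libraries of 2 to 24 months, with means of 50.3 to 51.6 CPM per age. At 24 against 2 months its change was 0.02 with a 95% interval of -0.11 to 0.14. Foxo3 averaged 127 ± 6.54, 125 ± 3.70, 118 ± 4.49 and 119 ± 6.14 CPM at 2, 9, 15 and 24 months (SD, n = 5 each). Neither gene was called in a comparison of the younger ages, and Foxo3 at 24 against 2 months was at -0.09 (SE 0.04, adjusted p = 0.0794). With the GC offset Foxo3 was past the threshold at 24 against 2 months (-0.11 ± 0.04, SE) and in the trend.

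Mtor (chr4:148448611-148557683, plus strand) encodes the kinase of both mTOR complexes. Over 2 to 24 months, without the GC offset, Mtor was the steadiest of the 10 transcripts relative to its level. It averaged 182 ± 2.23, 182 ± 2.41, 181 ± 3.54 and 179 ± 6.97 CPM at 2, 9, 15 and 24 months (SD, n = 5 each). The 95% interval of its log2 change at 24 against 2 months was -0.08 to 0.03. With the GC offset Mtor was called at 24 against 15 months, at -0.09 ± 0.03 (SE).

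At 30 months 7 of the 10 genes were called against 2 months and 7 against 24 months, while 58.0% and 54.5% of the 17799 genes tested were called. Igf1 was lower, at 11.2, 7.32, 6.47, 6.57 and 3.89 CPM at 30 months, against 15.2, 15.3, 13.2, 14.7 and 15.3 CPM at 2 months. All 30 months libraries lay below all younger ones, with replicate 1 the highest of its age. The log2 fold change was -1.05 (SE 0.15, adjusted p = 6.28e-06) against 2 months and -0.97 (SE 0.14, adjusted p = 2.83e-05) against 24 months. After the offset for GC the libraries were at 11.9, 14.9, 15.8, 14.7 and 11.4 CPM at 30 months, and the change against 2 months was -0.10 ± 0.08 (SE) and not called. In replicate 1 alone, whose GC ratio was within the younger range and whose share of mitochondrial ribosomal RNA was not, Igf1 was at -0.39 ± 0.11 (SE) against 2 months and past the threshold, with its spread taken from the other ages. Without the GC offset, the neuron markers summed to 4403 to 7340 CPM at 30 months and 6957 to 7486 CPM at 2 months. The microglia markers summed to 472 to 669 CPM at 30 months and 379 to 467 CPM at 2 months. Of the neuron markers only Rbfox3 had a higher mean at 30 months, with 260 CPM against 201 CPM at 2 months. The other neuron markers had lower means, among them Map2 with 849 and 1698 CPM. Of the microglia markers only P2ry12 had a lower mean, with 25.8 CPM at 30 months and 38.1 CPM at 2 months. The other microglia markers had higher means, among them C1qa with 60.3 and 28.1 CPM. The part of these markers in the changes at 30 months was not tested.

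Akt1 and Irs2 were higher at 30 months. Akt1 was at 165, 202, 211, 207 and 265 CPM at 30 months, against 158, 154, 156, 162 and 162 CPM at 2 months, a log2 fold change of 0.40 (SE 0.07, adjusted p = 5.41e-05). Irs2 was at 94.5, 130.2, 138, 142 and 125 CPM at 30 months, against 82.1, 76.4, 91.0, 98.2 and 101 CPM at 2 months, a log2 fold change of 0.49 (SE 0.10, adjusted p = 0.000186). For both genes replicate 1 lay lowest of its age, within or just above the 2 months range. With the GC offset neither gene was called at 30 against 24 months. There Akt1 averaged 165.5 CPM at 24 months and 166.3 CPM at 30 months, and Irs2 89.8 and 105 CPM. After the offset the changes against 2 months were 0.08 ± 0.03 for Akt1 and 0.24 ± 0.09 for Irs2 (SE), and both were past the threshold. Without replicates 2 to 5 they were 0.05 ± 0.05 and 0.07 ± 0.15 and not called.

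In the counts as deposited the receptors moved in opposite directions at 30 months. Insr was at 65.3 to 86.6 CPM at 30 months and 88.9 to 91.8 CPM at 2 months, a log2 fold change of -0.20 (SE 0.05, adjusted p = 0.00230). The GC offset brought its change to -0.004 ± 0.04 (SE), and without 30 months replicates 2 to 5 it was -0.07. Igf1r was at 108, 118, 128, 121 and 119 CPM at 30 months, against 106, 112, 109.6, 112 and 107 CPM at 2 months. The Igf1r change was 0.12 (SE 0.05, adjusted p = 0.0385) against 2 months and 0.14 (SE 0.05, adjusted p = 0.0184) against 24 months. Igf1r stayed past the threshold in both comparisons with the GC offset, at 0.15 ± 0.05 and 0.17 ± 0.05 (SE). The call against 2 months was lost in 22 of 25 fits without 1 library and without either run of 2 months libraries. The call against 24 months was lost without 24 months replicate 3, 30 months replicate 3 or 2 months replicates 3 to 5 (adjusted p = 0.0510), and without 30 months replicates 2 to 5 the change was -0.02 ± 0.07 (SE) against 2 months.

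Of the FoxO genes, Foxo6 was at 11.1, 12.2, 16.7, 16.4 and 15.3 CPM at 30 months, against 9.19, 8.98, 12.4, 12.6 and 12.3 CPM at 2 months, a log2 fold change of 0.37 (SE 0.13, adjusted p = 0.0162). Foxo6 has the transcript richest in GC (69.1%), and with the offset its change had the other sign, at -0.16 ± 0.11 (SE). The call was also lost when 2 months replicate 1 or 2, or 30 months replicate 3 or 4, was left out. The Foxo6 change was 0.19 ± 0.14 without 2 months replicates 1 and 2, and 0.64 ± 0.17 (SE) without replicates 3 to 5. Foxo1 was at 49.7 to 61.7 CPM at 30 months and 46.6 to 55.6 CPM at 2 months, at 0.16 (SE 0.07, adjusted p = 0.0411), a call lost in 20 of 25 fits without 1 library and without 2 months replicates 3 to 5. With the GC offset Foxo1 was higher by 0.25 ± 0.07 and 0.23 ± 0.07 (SE) against 2 and 24 months and was past the threshold in both, and without 30 months replicates 2 to 5 it was at -0.03 ± 0.11 against 2 months. Foxo3 was called against 24 months only, at 0.21 (SE 0.06, adjusted p = 0.00255), and with the offset its change was 0.08 ± 0.05 (SE). Irs1 was called in neither comparison, at -0.23 (SE 0.10) against 2 months, though without 2 months replicates 1 and 2 it was at -0.36 ± 0.11 (SE) and past the threshold. Mtor was called in neither, at 0.07 (SE 0.04) against 2 months.

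Set against GC content, the change at 30 against 2 months was lowest for Igf1, whose transcript is the poorest of the 10 in GC (38.0%). The 3 richest, Irs2 (56.6%), Akt1 (59.7%) and Foxo6 (69.1%), had the 3 highest changes, though among them the order was the reverse, at 0.49, 0.40 and 0.37. In between the order was not that of GC, with Insr (46.8%) at -0.20, Foxo1 (48.5%) at 0.16 and Irs1 (50.3%) at -0.23. Under the offset 5 of the 10 genes were called against 2 months, and 45.6% of all genes. Those 5 were Igf1r, Irs2, Foxo1 and Akt1, higher at 30 months, and Irs1, lower at -0.26 ± 0.10 (SE). With the single library of 30 months replicate 1, 1 of 10 was called against 2 months (Igf1), beside 8.53% of all genes, and 0 against 24 months, beside 3.85%.

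**Figure D4:**
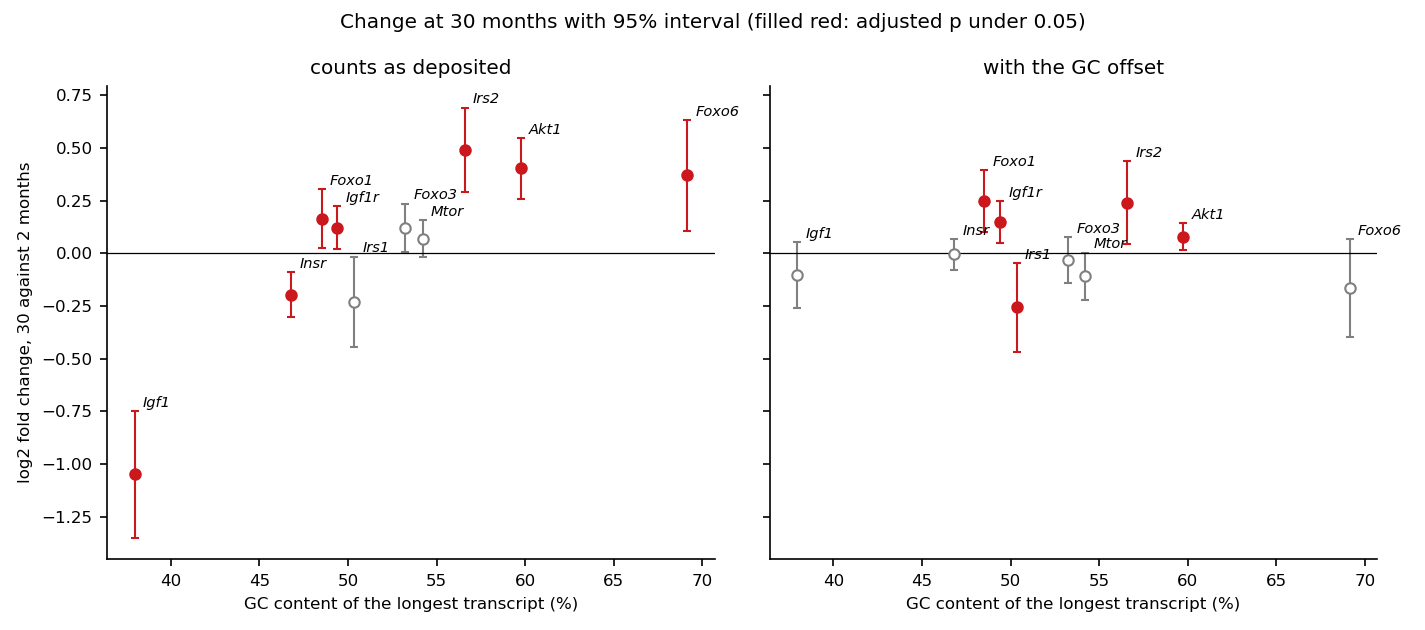
Log2 fold change at 30 against 2 months of each gene (vertical axis, with 95% interval) against the GC content of its longest transcript in percent, for the counts as deposited (left) and with the GC offset (right); filled red points have an adjusted p under 0.05. Igf1 lies at -1.05 on the left and at -0.10 on the right.

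Of 99 further genes of the pathway, in lists by function, 95 were tested. At 9 against 2 months 19 of the 95 were called (14 higher, 5 lower), beside 14.9% of all genes, and 7 of the 14 rises were FoxO target genes. Without 2 months replicates 1 and 2 it was 10, or 10.5% beside 10.4% of all genes, and without replicates 3 to 5 it was 8, or 8.42% beside 8.28%. With library totals alone as the scaling the split was 8 higher and 10 lower. Of 20 FoxO target genes 9 were called, 8 higher and 1 lower at 9 months, Irs2 among the higher, with a median log2 fold change of 0.09 beside -0.01 over all genes. Sesn3, a sestrin that restrains mTOR, averaged 343 ± 17.4 CPM at 9 months and 287 ± 12.5 CPM at 2 months (SD, n = 5 each), at 0.26 (SE 0.03, adjusted p = 2.29e-06). Cited2, a transcriptional co-regulator, rose by 0.24 (SE 0.05, adjusted p = 0.00166), and Bcl6, a transcriptional repressor, rose by 0.24 (SE 0.05, adjusted p = 0.00167). Fbxo32, a ubiquitin ligase subunit best known from muscle wasting, was the gene that fell, at -0.27 (SE 0.07, adjusted p = 0.00933). The GC offset gave the same counts, 8 higher and 1 lower, with 16.1% of all genes called. The list had 5 genes called without 2 months replicates 1 and 2 and 4 without replicates 3 to 5. It had 4 called when 2 months replicate 2 or 9 months replicate 1 was left out, 5 when 9 months replicate 3 was, and 0 with all 25 libraries. Of 6 oligodendrocyte markers 3 were lower at 9 months, and their part in these changes was not tested.

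**Figure D5:**
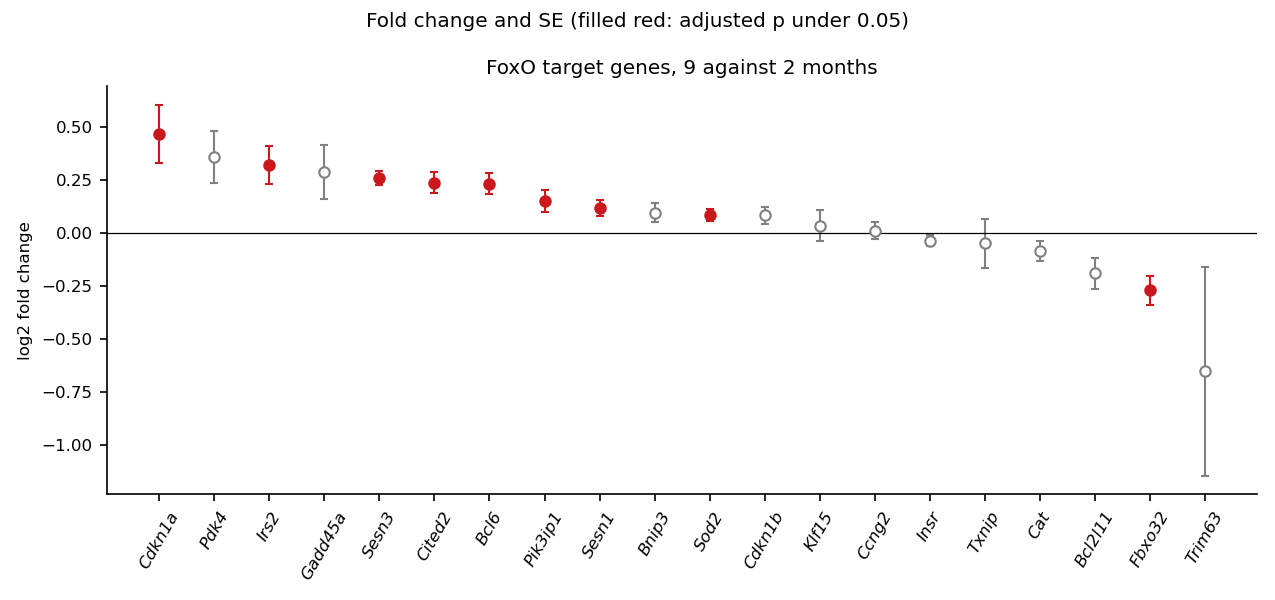
Log2 fold change with SE of the 20 FoxO target genes at 9 against 2 months, ordered by value; filled red points have an adjusted p under 0.05. Of these, 8 lie above 0 and 1, Fbxo32, lies below.

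In the same comparison Eef2k, the kinase that slows translation elongation, fell by 0.33 on the log2 scale (SE 0.04, adjusted p = 1.03e-05), at 35.6 ± 2.30 CPM at 9 months and 44.9 ± 1.89 CPM at 2 months (SD, n = 5 each). It was 1 of 3 mTOR effectors called of 10, with Eif4ebp1 lower and Eif4ebp2 higher, both of them repressors of cap-dependent translation. Rheb, the GTPase that turns on mTOR, rose by 0.17 (SE 0.04, adjusted p = 0.00276) and led the 4 of 23 upstream genes called, of which 3 were higher. In that comparison 14.9% of all genes were called. Deptor, an inhibitor of mTOR, rose by 0.29 (SE 0.05, adjusted p = 0.000478) at 15 against 2 months, at 36.9 ± 1.61 CPM at 15 months and 30.2 ± 1.19 CPM at 2 months (SD, n = 5 each). Of the 95 genes, 15 were called at 15 against 2 months (5 higher, 10 lower), a share of 15.8% near the 13.1% of all genes. With the GC offset it was 9 (3 higher, 6 lower), or 9.47% beside 8.24% of all genes. At 15 against 9 months 3 were higher and 12 lower, 15.8% beside 10.9% of all genes. Library totals alone gave 5 and 11 there, and the GC offset 2 and 5, or 7.37% beside 5.52%.

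At 24 against 2 months 25 of the 95 genes were called (9 higher, 16 lower), a share of 26.3% near the 22.8% of all genes, and 7 of the 16 falls were in the PI3K and AKT list. With a covariate for Alb 10 were called (4 higher, 6 lower), or 10.5% beside 11.8% of all genes. Without 2 months replicates 3 to 5 it was also 10 (2 higher, 8 lower), beside 10.8% of all genes, and with all 25 libraries it was 5. Of 17 genes of that list 7 were lower and 1, Akt1, was higher, with a median log2 fold change of -0.07 beside 0.00 over all genes. Inppl1, the lipid phosphatase SHIP2, averaged 33.0 ± 0.469 CPM at 24 months and 39.3 ± 0.740 CPM at 2 months (SD, n = 5 each), at -0.25 (SE 0.04, adjusted p = 1.56e-05). Pik3r3, a regulatory subunit of PI3K, was at -0.17 (SE 0.03, adjusted p = 0.000528). The count of 8 called was the same in each of the 20 fits that left out 1 library, with the GC offset it was 10, with 9 lower, with a covariate for Alb it was 5, and with all 25 libraries it was 1. It was 7 without 2 months replicates 1 and 2 and 6 without replicates 3 to 5. Of the microglia markers 8 of 10 were higher at 24 months, and their part in these changes was not tested. Elsewhere, Txnip, a FoxO target that binds thioredoxin, rose by 0.53 (SE 0.11, adjusted p = 0.00257). Within the FoxO target list the means went both ways, with Ccng2 at 42.8 CPM at 24 months and 48.3 CPM at 2 months. Foxo4, the FoxO gene outside the 10, fell by 0.16 (SE 0.05, adjusted p = 0.0248).

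At 24 against 15 months 34 of the 95 genes were called (18 higher, 16 lower), 35.8% beside 24.1% of all genes, and 23 with the GC offset (9 higher, 14 lower), 24.2% beside 12.2%. At 30 against 2 months it was 62 (40 higher, 22 lower), a share of 65.3% beside 58.0% of all genes, and at 30 against 24 months 56 (36 higher, 20 lower), 58.9% beside 54.5%. The GC offset left 39 called against 2 months (32 higher, 7 lower), or 41.1% beside 45.6% of all genes. Replicate 1 alone left 3, or 3.12% of 96 tested beside 8.53% of all genes. Among the binding proteins, which carry IGFs outside cells, Igfbp5 was at 286 ± 8.56 CPM at 30 months and 226 ± 17.9 CPM at 2 months (SD, n = 5 each), at 0.34 (SE 0.05, adjusted p = 1.99e-05), and at 0.32 ± 0.05 (SE) with the GC offset. Pik3ip1, a FoxO target that inhibits PI3K, was at 0.52 (SE 0.07, adjusted p = 8.85e-06) and at 0.38 ± 0.06 (SE) with the offset. Of the 20 FoxO target genes 8 were higher and 4 lower at 30 than at 2 months, and with the GC offset 12 were higher and 0 lower, at a median of 0.32 beside 0.02 over all genes, of which 45.6% were called. Without replicates 2 to 5 of 30 months 1 of the 20 was called.

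The genes with the pattern most like that of a member are given by Pearson's r of log2 CPM over the 20 libraries of 2 to 24 months, out of 12823 genes of 2 CPM or more. The points share library, depth and base composition, and r is a description. Irs2 was most like Dusp4 (r = 0.95), Gadd45a (0.90) and Tmem28 (0.90), and Igf1r most like Vps13c (0.90), Cacna1e (0.88) and Nhsl2 (0.88). Irs1 was most like Gga2 (0.90), Ubfd1 (0.85) and Urb2 (0.84), Akt1 most like Agap3 (0.91), Sgta (0.89) and Rogdi (0.89), Foxo6 most like Mmp24 (0.90), Aacs (0.89) and Stk40 (0.86), and Insr most like Cpne3 (0.85), Gng2 (0.84) and Sp100 (0.84). Gadd45a belongs to the FoxO target list, where at 9 against 2 months it was at 0.29 (SE 0.13, adjusted p = 0.130) and not called.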

How the data were processed

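Total RNA of 25 brain hemispheres was sequenced, 5 libraries per age. The authors deposited whole-number counts per gene. Per the submitters' processing notes CASAVA 1.7, STAR 2.4.1d and featureCounts 1.4.6-p4 were used with the genome build GRCm38; the annotation release, counting settings and use of strand are not given in the sources used here. The deposited RPKM table was not used here, since its values were not comparable between samples. Of 47729 gene identifiers, 47310 matched GENCODE M21, which gave coordinates, lengths and GC content.

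Counts were tested with edgeR 4.0.16 (R 4.3.3) by the quasi-likelihood test with TMM scaling, the tool's filter on low counts, robust estimation and Benjamini-Hochberg adjustment over all genes tested, with a threshold of 0.05. Ages up to 24 months were fitted on their 20 libraries (17472 genes) and 30 months on all 25 (17799 genes). The standard error was the fold change over the root of the test statistic. Levels are CPM after TMM over 25 libraries. The GC offset was a lowess curve (span 0.3) of each library's log2 ratio to the mean of the 20 younger libraries on GC content, fitted on genes of 1 CPM or more. Alternatives were DESeq2 1.42.0 size factors and test, limma 3.58.1 with voom, library totals alone, no filter, the GC offset, a covariate for Alb, other sets of libraries (those without either run of 2 months libraries were chosen after seeing the data), and each library left out in turn. The steps were tested on simulated data. Library totals and counting error limit the precision of the scarce genes.

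The members and the lists were chosen with earlier results of these data known. All members are described in each comparison; of the other listed genes those past the threshold may be named, smallest p first, at most 4 per list and comparison; some results are not reported here. For members past the trend or departure test, the 3 genes of highest correlation are also named. Promoter windows run from 250 bases before to 50 after the RefSeq start.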

Additional observations from a re-analysis of the deposited data

Results flagged for a closer look

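In 3 of the 50 sets of 5 libraries (10 genes at 5 ages), 1 library lay far from the other 4, where chance gives about 1 in 20. Irs1 was at 10.6 CPM in 30 months replicate 5, while the next library was at 14.3 CPM and the highest at 15.3 CPM. Foxo3 was at 126 CPM in 15 months replicate 4, while the next was at 117 CPM and the lowest at 115 CPM. Foxo6 was at 6.40 CPM in 24 months replicate 1, while the next was at 9.30 CPM and the highest at 10.4 CPM. When 15 months replicate 4 was left out, Foxo3 was past the threshold at 15 against 2 months.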

How the results depend on the processing

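No paired analysis was possible because replicate numbers follow accession order only. The members' values under the alternatives were log2 changes or slopes, and for the departure, which has no direction, the adjusted p. Of these values, 2512 kept their side of the threshold, and their direction where called, 181 lost the call, 64 gained it, 53 called in neither fit moved by over 1 SE, and 10 called in either fit changed sign. A further 111 values called in neither fit changed sign, counted among the first or the moved ones, such as Mtor (-0.11) and Foxo3 (-0.03) at 30 against 2 months with the GC offset. The causes were not tested. Members called when 1 library was left out ranged from 1 to 2 at 9 against 2 months, 0 to 2 at 15 against 2, 1 to 3 at 24 against 2, 0 to 4 at 15 against 9, 2 to 3 at 24 against 15, 0 to 2 for the trend, 3 to 5 for the departure, 4 to 9 at 30 against 2 and 6 to 9 at 30 against 24 months. All 25 libraries in the fit gave 0 members in each of the 5 younger pairs. They gave 7 for the departure, there from a line from 2 to 30 months. The GC offset gave 0 at 15 against 2, 0 at 15 against 9, 4 at 24 against 2, 2 at 30 against 24 and 2 for the departure, and 3 at 30 against 24 when 30 months replicate 1 was also left out. DESeq2 gave 2 at 15 against 2 months, the Alb covariate 2 there and 1 for the trend, library totals alone 1 for the trend, and no filter 1 each for 24 against 2, 15 against 9 and the trend. Leaving out 30 months replicates 2 to 5 gave 1 against 2 months and 0 against 24 months; the lone library is then assumed to vary like the other ages. Chosen after seeing the data, the fit without 2 months replicates 1 and 2 gave 1 at 9 against 2 and 2 at 15 against 2 months, and that without replicates 3 to 5 gave 1 at 9 against 2, 0 at 15 against 2, 1 at 24 against 2 months and 0 for the trend.

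Among values past the threshold before or after, signs that changed were the Foxo6 slope per month with all 25 libraries (0.00734). Without 30 months replicates 2 to 5 they were Foxo1 (-0.0293), Foxo6 (-0.0113) and Igf1r (-0.0201) against 2 months, and Igf1r (-0.00156) and Akt1 (-0.0665) against 24 months. With the GC offset it was Foxo6 (-0.164) against 2 months, and with replicate 1 also left out Foxo6 (-0.173), Mtor (-0.138) and Insr (0.00283).

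All-gene counts moved by over 1.5 times as follows. With all 25 libraries they were 423 (2599 as reported) at 9 against 2 and 224 (2281) at 15 against 2 months. They were 931 (3977) at 24 against 2, 3 (1904) at 15 against 9 and 201 (4214) at 24 against 15 months. With these libraries, over a line from 2 to 30 months, they were 9160 (5235) for the departure and 8361 (2927) for the trend. The GC offset gave 1440 at 15 against 2, 965 at 15 against 9, 2124 at 24 against 15 and 3439 for the departure, and the Alb covariate 2056 at 24 against 2 and 946 for the trend. Without 30 months replicates 2 to 5 they were 1639 (10324) against 2 and 739 (9701) against 24 months. Leaving out 15 months replicate 1 gave 1361 at 15 against 2, and 9 months replicate 3 gave 1170 at 15 against 9 months. Without 2 months replicates 3 to 5 they were 1502 at 9 against 2, 828 at 15 against 2 and 1956 at 24 against 2 months.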
